A study of Mus musculus with 2 samples.

Results

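The laminin and integrin subunit genes were the 37 genes of the count table whose symbol names a laminin α, β or γ chain or an integrin α or β subunit, out of 49492 genes in all. They comprised 11 laminin genes (5 α, 3 β and 3 γ) and 26 integrin genes (18 α and 8 β). The rule that picks them reads the symbols alone. Of the 37 genes, 35 reached at least 10 counts summed over both libraries and could be compared, 29 of these had at least 200 counts, and Itgad and Itgax did not reach 10.

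RNA-seq was performed on cells grown from wild type mouse mammary basal cells in 3D matrix gel for 10 days, with 1 control library and 1 library from cells given recombinant mouse TNF-α at 10 ng/mL. The basal cells came from glands of adult females and were sorted as lineage negative, CD24+, CD29hi cells, and both cultures received the same medium with EGF and insulin, transferrin and selenium. CD29 is the integrin β1 protein encoded by Itgb1, so every culture began with cells selected for high surface amounts of 1 of the subunits described here. The strain, and how many animals or culture wells contributed to each library, are not given in the sources used here, and the methods give 7 to 14 days as the usual length of such cultures. With 1 library per group the spread between cultures was not measured, so no test between the conditions was possible and no p-value is given. Fewer cells of a type and less RNA per cell cannot be told apart in these bulk libraries.

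Laminins are secreted heterotrimers of 1 α, 1 β and 1 γ chain that polymerise into the basement membrane, the sheet on which basal cells of the mammary gland sit. Integrins are αβ heterodimers in the plasma membrane, and which matrix protein a cell can grip depends on which α chain it pairs with which β chain. The α3, α6 and α7 chains bind laminins, the α1, α2, α10 and α11 chains bind collagens, the α5, α8, αv and αIIb chains bind ligands with an RGD sequence such as fibronectin, nephronectin and vitronectin, and the αD, αE, αL, αM and αX chains belong to leukocyte integrins. The dimer of α6 and β4 anchors basal keratinocytes and myoepithelial cells to an epithelial laminin that holds the chains of Lama3 and Lamb3, in plaques called hemidesmosomes.

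Together the 37 genes held 0.412% of the counts in the control library (183167 of 44462275) and 0.484% in the TNF-α library (258618 of 53487087). A count of 10 corresponded to 0.224 CPM in the control and 0.188 CPM with TNF-α. Library sizes were scaled by edgeR's TMM method, and log2 ratios of the TNF-α over the control library were taken from CPM with a prior count of 2. Its median over the 20771 genes compared was 0.01, with 5th and 95th percentiles of -1.19 and 1.42. Intervals given after a log2 ratio are 95% Clopper-Pearson intervals of the share of reads, which cover counting error only and not the spread between cultures or between PCR copies. Genes with 2 counts (2172 in the control library) outnumbered those with 1 count (618), the pattern of paired reads in which each end adds a count, and intervals would then be somewhat wider. CPM here is the count scaled to the TMM library size, and levels of different genes are compared as CPM per kilobase of exon, called the length-normalized level. Itgb1, the marker of the sort, had the highest length-normalized level of the integrin genes in both libraries, and basal markers such as Krt5 (109438 counts in the control and 146872 with TNF-α) and Krt14 (229766 and 259922) were abundant. The 8 basal markers summed to 11941 CPM in the control and 11070 CPM with TNF-α. The 12 luminal markers summed to 3814 CPM and 2724 CPM, so luminal transcripts were present in both libraries although the culture began with basal cells.

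A gene was called when its fold passed 2. Of the 35 members compared, 3 were called higher with TNF-α (Itga4, Lama4 and Itgb6) and 4 lower (Itga8, Lama2, Lamc3 and Itgal). Over all 20771 genes compared, 8.63% were called higher and 6.55% lower. These shares also stand beside the called genes of the partner, ligand and marker lists below. Among the 29 members with at least 200 counts, 3 were called higher and 3 lower, against 4.07% and 2.81% of the 13609 genes at that depth. At a fold of 1.5, 6 of these 29 were higher and 5 lower, against 9.32% and 7.25% of genes at that depth. The members with at least 200 counts had a median log2 ratio of 0.03 with quartiles of -0.34 and 0.50, and all genes at that depth had a median of 0.01 with quartiles of -0.21 and 0.23. The quartiles of the members lay further apart, while the 2 medians were close. The members were chosen with results of these data known, so these shares are a description.

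The upstream sequences of Itga4, Itga8 and Itgb6 are shown because these are the integrin genes with at least 200 counts that passed 2-fold. Each is the stretch before a RefSeq transcript start on the gene's own strand, 5′ to 3′, in GRCm38.p6, with bases that lie in the gene's deposited exons left out. Capitals mark a GC box (GGGCGG), a motif bound by Sp family factors. The Itga4 sequence is chr2:79255176-79255425 on the + strand, the Itga8 sequence chr2:12301945-12302194 on the - strand and the Itgb6 sequence chr2:60722644-60722853 on the - strand. Itgb6 has another RefSeq start, whose upstream bases at chr2:60673694-60673943 are not shown.
Itga4: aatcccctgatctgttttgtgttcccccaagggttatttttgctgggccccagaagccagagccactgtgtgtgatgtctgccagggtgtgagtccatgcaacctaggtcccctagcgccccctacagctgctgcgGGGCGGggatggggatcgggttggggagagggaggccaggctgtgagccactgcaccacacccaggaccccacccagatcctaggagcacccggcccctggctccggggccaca
Itga8: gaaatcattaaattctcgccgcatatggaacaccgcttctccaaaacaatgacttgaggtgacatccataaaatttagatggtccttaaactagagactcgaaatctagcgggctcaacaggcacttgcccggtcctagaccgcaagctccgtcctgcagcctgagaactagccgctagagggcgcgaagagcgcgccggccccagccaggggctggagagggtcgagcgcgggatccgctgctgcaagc
Itgb6: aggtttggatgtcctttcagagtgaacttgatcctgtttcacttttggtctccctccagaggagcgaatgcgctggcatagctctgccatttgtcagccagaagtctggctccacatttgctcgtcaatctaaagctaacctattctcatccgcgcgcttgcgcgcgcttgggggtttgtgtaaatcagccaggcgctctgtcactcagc
The Itga4 sequence holds 1 GC box and the other 2 sequences hold none.

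The 250 bases before each start were searched on both strands for the NF-κB motif, the AP-1 motif (TGANTCA), the GC box (GGGCGG) and the TATA motif (TATAAA), each on its own. A window was found for 23 of the 37 members, some with more than 1 start. The NF-κB motif lay in the windows of 1 member, Lamb3, in 3.90% of all 32851 windows and in the windows of 5.55% of the 12634 genes compared that have one. It read GGGAGTCTCC at chr1:193302017-193302026 on the + strand, 226 bases before the second of the Lamb3 starts and downstream of the first, and 171 of the 250 bases of that window lie in the gene's own deposited exons. The AP-1 motif lay in 1 member, Itgax, in 6.75% of all windows and in 6.10% of those genes. A GC box lay in 8 members (Itga3, Itga4, Itga5, Itgam, Itgb1, Itgb5, Lama5 and Lamb1), in 32.7% of all windows and in 58.8% of those genes. The TATA motif lay in 0 of the 23 members, in 12.4% of all windows and in 8.77% of those genes. The letters of the NF-κB and AP-1 motifs were thus not in the windows shown for Itga4, Itga8 and Itgb6, which says nothing of binding elsewhere.

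**Figure D1:**
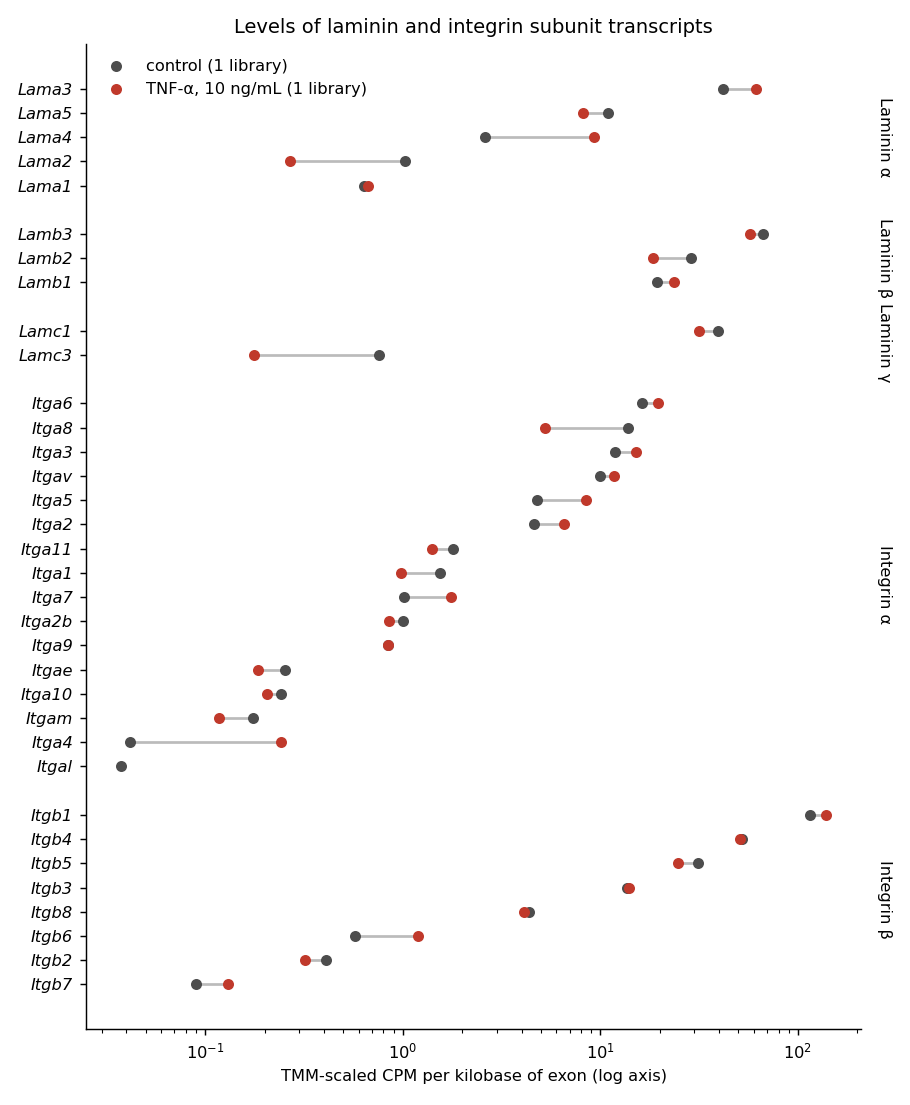
Length-normalized level (TMM-scaled CPM per kilobase of exon, log axis) of 34 of the members compared, in the control (grey) and TNF-α (red) library, 1 library each, ordered within each family by the control level. Itgb1 and Itga6 lead their families in both libraries, and Lama2, Lamc3, Itga8, Lama4 and Itga4 show the widest gaps between the libraries (Itgal has no TNF-α point because it had 0 counts there).

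The α3 and β3 chains of the epithelial laminin of hemidesmosomes had the most abundant transcripts of their families in both libraries. Positions are in GRCm38 throughout. Lama3 (chromosome 18, 12333819 to 12583013), which encodes α3, had 20105 counts in the control and 34955 with TNF-α, at a log2 ratio of 0.55 (0.52 to 0.57). Its exons share 197 bases (1.83% of its length) with Gm29200 on the opposite strand, whose counts also rose, from 1761 to 3269. Lamb3 (chromosome 1, 193207699 to 193343878), which encodes β3, had 19757 and 20056 counts, at a log2 ratio of -0.23 (-0.26 to -0.20). The reads of Lama3 were therefore more frequent in the TNF-α library and those of its partner Lamb3 slightly less frequent, with neither past 2-fold.

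The ratio of 2 chains within a library does not depend on how the libraries are scaled. The ratios given here were not corrected for GC content and length. That correction moved the log2 ratio of Lama3 from 0.55 to 0.61 and that of Lama5 from -0.43 to -0.21. Per length, Lama3 stood at 0.626 times Lamb3 in the control and 1.07 times with TNF-α, a change of 1.71-fold (95% counting interval 1.67 to 1.76). Against Lama5, the α chain of most other basement membranes, Lama3 stood at 3.82 times in the control and 7.50 times with TNF-α, a change of 1.96-fold (1.88 to 2.05). In length-normalized level Lamb3 (66.9) was above Lama3 (41.9) in the control, and with TNF-α the order was the other way (57.0 and 61.1). Lama3 has short and long isoforms that share its later exons, so its level over all deposited exons understates a short isoform.

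The γ1, β1, β2 and α5 chains form the widely expressed laminins of most basement membranes. Lamc1 (chromosome 1, 153218922 to 153332786), which encodes γ1, had 14605 counts in the control and 13844 with TNF-α, at a log2 ratio of -0.33 (-0.36 to -0.30). Lama5 (chromosome 2, 180176373 to 180225859), which encodes α5, had 5584 and 4941 counts, at a log2 ratio of -0.43 (-0.48 to -0.37). Lamb2 (chromosome 9, 108479736 to 108490530), which encodes β2, had 7851 and 5984 counts, at a log2 ratio of -0.64 (-0.69 to -0.60). All 3 were lower with TNF-α by less than 2-fold, and a correction for GC content and length moved Lama5 to -0.21 and Lamb2 to -0.47. Lamb1 (chromosome 12, 31265234 to 31329644), which encodes β1, went the other way with 8550 and 12474 counts, at a log2 ratio of 0.29 (0.25 to 0.33). Within each library, Lamb1 stood at 0.668 times Lamb2 per length in the control and 1.28 times with TNF-α, so the order of these 2 β chains differed between the libraries.

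The summed length-normalized level of the 5 laminin α genes was 1.39-fold higher with TNF-α, and that of the 3 β genes was 0.862 times the control. Lama3 made up 73.3% and 76.9% of the α sum, and Lamb3 58.1% and 57.5% of the β sum, so the leading chain of these 2 families held nearly the same share in both libraries.

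Lama4 and Lama2 were past 2-fold in opposite directions. Lama4 (chromosome 10, 38965515 to 39110188) encodes α4, a chain best known from the basement membranes of vessels and of mesenchymal cells. It had 1409 counts in the control and 5940 with TNF-α, at a log2 ratio of 1.82 (1.74 to 1.91), at percentile 96.8 of the genes compared. Its length-normalized level rose from 2.61 to 9.25, from 0.238 times that of Lama5 to 1.13 times, and its share of the α sum from 4.57% to 11.6%. With TNF-α, Lama4 therefore ranked above Lama5, which was the second α chain in the control.

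Lama2 (chromosome 10, 26980036 to 27619758) encodes α2, the chain of muscle and nerve laminins. It fell from 749 counts in the control to 234 with TNF-α, at a log2 ratio of -1.92 (-2.15 to -1.72). Lamc3 (chromosome 2, 31887291 to 31946539), which encodes γ3, fell from 206 to 57 counts, at a log2 ratio of -2.06 (-2.56 to -1.68). Both were low in length-normalized level, at 1.03 and 0.757 in the control and 0.269 and 0.176 with TNF-α, and together with Lama1 they were the 3 lowest laminin genes in both libraries. Lama1 (chromosome 17, 67697265 to 67822645), which encodes the α1 chain of early embryonic laminin, had 270 and 338 counts, at a log2 ratio of 0.07 (-0.16 to 0.31) whose interval included 0.

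**Figure D2:**
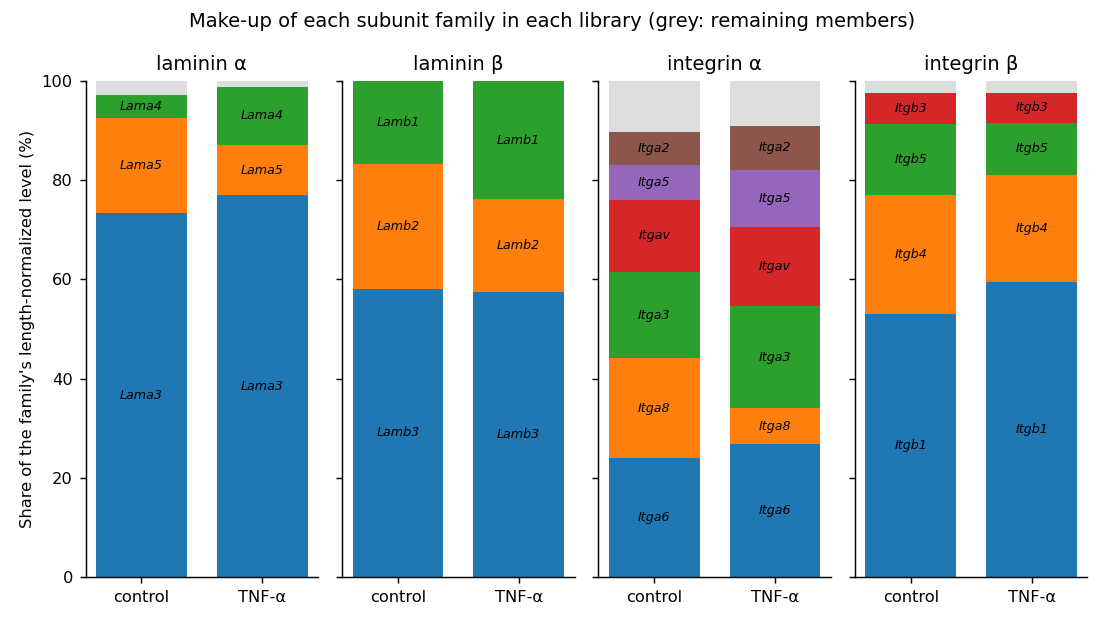
Share (%) of each member in the summed length-normalized level of its family (laminin α and β, integrin α and β), in the control and TNF-α library (1 library each), with grey for the remaining members of the family. Lama4 grew from 4.57% to 11.6% of the laminin α chains and Itga8 shrank from 20.2% to 7.20% of the integrin α subunits, while Itgb1 and Itgb4 stayed the first and second of the β subunits.

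The 3 laminin-binding integrin α genes were each higher with TNF-α, by less than 2-fold. Itga6 (chromosome 2, 71745616 to 71858416), which encodes α6 and is a classical marker of basal mammary cells, had 6592 counts in the control and 9440 with TNF-α, at a log2 ratio of 0.27 (0.22 to 0.31). Itga3 (chromosome 11, 95044474 to 95076801), which encodes α3, had 3030 and 4596 counts, at a log2 ratio of 0.35 (0.28 to 0.42). Itga6 remained the most abundant integrin α gene per length, at 16.3 and 19.7, and the ratio of Itga6 to Itga3 within a library was 1.38 in the control and 1.30 with TNF-α. Itga7 (chromosome 10, 128933813 to 128958277), which encodes the laminin receptor chain of muscle, was rarer, with 182 and 376 counts and a log2 ratio of 0.79 (0.54 to 1.06). Its length-normalized level was 1.01 and 1.76.

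Their β partners are β1 and, for α6, also β4. Itgb1 (chromosome 8, 128685654 to 128733200) had 21127 counts in the control and 30248 with TNF-α, at a log2 ratio of 0.27 (0.24 to 0.29). Itgb4 (chromosome 11, 115974709 to 116008412) had 16332 and 18937 counts, at a log2 ratio of -0.04 (-0.07 to -0.01) that turned to 0.15 once corrected for GC content and length. The 2 genes had the highest length-normalized levels of all integrin genes, 116 and 52.1 in the control and 139 and 50.7 with TNF-α. Itgb4 stood at 3.19 times Itga6 per length in the control and 2.58 times with TNF-α, and at 0.450 and 0.364 times Itgb1. Exons of Itgb4 share 537 bases (7.66% of its length) with B230344G16Rik on the opposite strand, which had 2471 and 2771 counts, and whether the counting used the strand is not given in the sources used here.

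Of 4 other hemidesmosome genes, Plec, Dst, Col17a1 and Cd151, 0 were past 2-fold in either direction, and the median log2 ratio was -0.15, or -0.00017 once corrected for GC content and length. The lowest was Plec, the plakin that ties β4 to keratins, at -0.38 (87089 counts in the control and 79853 with TNF-α), and the highest Col17a1, a transmembrane collagen of the plaque, at 0.10 (56307 and 71901). The 5 receptors for laminin outside the integrin family likewise had 0 past 2-fold, with a median of 0.22, from -0.01 for the syndecan gene Sdc1 to 0.42 for the dystroglycan gene Dag1 (8674 and 13853 counts). These medians stand beside 0.01 over all genes compared.

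Among the RGD-binding α subunits, Itga8 and Itga5 moved apart. Itga8 (chromosome 2, 12106632 to 12301922) encodes α8, which pairs with β1 and binds nephronectin. It fell from 4555 counts in the control to 2071 with TNF-α, at a log2 ratio of -1.39 (-1.46 to -1.31), at percentile 3.87 of the genes compared. In the control it was the second most abundant integrin α gene per length, at 13.8 and 20.2% of the α sum, and with TNF-α it stood at 5.28 and 7.20%, behind Itga6, Itga3, Itgav, Itga5 and Itga2. Its exons share 372 bases (5.05% of its length) with E030013I19Rik on the opposite strand, whose counts also fell, from 873 to 271.

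Itga5 (chromosome 15, 103344286 to 103366763), which encodes the fibronectin receptor chain α5, had 949 counts in the control and 1995 with TNF-α, at a log2 ratio of 0.82 (0.71 to 0.93). Within each library Itga5 stood at 0.346 times Itga8 per length in the control and 1.60 times with TNF-α, a change of 4.62-fold (4.21 to 5.07). Itgav (chromosome 2, 83724397 to 83806916), which encodes αv, the partner of several β chains, had 4816 and 6698 counts, at a log2 ratio of 0.22 (0.17 to 0.28), and went from 0.725 to 2.22 times Itga8. Itga2b (chromosome 11, 102453297 to 102470122), which encodes the platelet chain αIIb, had 245 and 249 counts, at a log2 ratio of -0.23 (-0.49 to 0.03). The platelet markers Treml1 and Gp6 were at 0 in both libraries, 2 of the 6 platelet markers reached 10 counts, with 0 past 2-fold, and the list summed to 4.63 CPM in the control and 3.80 CPM with TNF-α, of which Gp1ba gave most (195 and 190 counts, at a log2 ratio of -0.29). The other one that reached 10 counts was Pf4, with 6 and 4 counts.

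The ligands of these receptors were counted as well. Npnt, the gene of nephronectin, had 150 counts in the control and 348 with TNF-α, at a log2 ratio of 0.95 (0.68 to 1.25), while its receptor gene Itga8 fell. Fn1, the gene of fibronectin and named after its values were seen, had 58047 and 109816 counts, at a log2 ratio of 0.67 (0.65 to 0.68), in the same direction as Itga5. Spp1, which encodes osteopontin, a ligand of αv and α4 integrins, was the lowest of the 12 listed ligands other than laminin and collagen, at -0.29 (5938 and 5766 counts).

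The αv partners β3, β5, β6 and β8 differed among themselves. Itgb6 (chromosome 2, 60598292 to 60722643) encodes the epithelial chain β6, whose dimer with αv activates latent TGF-β. It rose from 182 counts in the control to 453 with TNF-α, at a log2 ratio of 1.06 (0.81 to 1.32), close to the threshold of 1 and with an interval that reached below it. Itgb8 (chromosome 12, 119158022 to 119238802), which encodes another chain known to activate latent TGF-β, had 2167 and 2419 counts, at a log2 ratio of -0.09 (-0.18 to -0.01). Itgb6 remained far below Itgb8 per length, at 0.131 times in the control and 0.291 times with TNF-α.

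Itgb5 (chromosome 16, 33829665 to 33949153), which encodes the vitronectin receptor chain β5, was the third integrin gene in length-normalized level in both libraries. It had 4689 counts in the control and 4418 with TNF-α, at a log2 ratio of -0.34 (-0.40 to -0.28). Itgb3 (chromosome 11, 104608000 to 104670476), which encodes β3, a marker of luminal progenitors in the mammary gland, had 3588 and 4372 counts, at a log2 ratio of 0.03 (-0.03 to 0.10) whose interval included 0. The ratio of Itgb3 to Itgb5 per length changed 1.29-fold, from 0.436 to 0.564.

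The collagen receptor chains showed no member past 2-fold. Itga2 (chromosome 13, 114835916 to 114932041), which encodes the α2 chain of the main epithelial collagen receptor, had 867 counts in the control and 1466 with TNF-α, at a log2 ratio of 0.50 (0.38 to 0.63). Itga1 (chromosome 13, 114958079 to 115101964), its neighbour on the chromosome, which encodes α1, had 411 and 313 counts, at a log2 ratio of -0.64 (-0.86 to -0.43). Itga2 was 3.00 times Itga1 per length in the control and 6.65 times with TNF-α. Itga11 (chromosome 9, 62677826 to 62783982), which encodes the fibroblast collagen receptor chain α11, had 414 and 384 counts, at a log2 ratio of -0.36 (-0.56 to -0.16). Itga10, the chondrocyte chain, had 56 and 57 counts and shares 33.5% of its exon length with Gm42957 on the same strand, so its counts are uncertain.

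Itga4 showed the largest ratio of all members, at a low level. Itga4 (chromosome 2, 79255426 to 79333123) encodes α4, best known from leukocytes, whose dimer with β1 binds the vascular adhesion protein VCAM-1. It rose from 26 counts in the control to 180 with TNF-α, at a log2 ratio of 2.46 (1.94 to 3.19), at percentile 98.3 of the genes compared. With counts halved, for read ends counted singly, its interval was 1.69 to 3.50. Its length-normalized level was 0.0416 in the control and 0.242 with TNF-α, against 116 and 139 for Itgb1. Its exons share 1124 bases (8.04% of its length) with Cerkl on the opposite strand, which had 6 and 13 counts. Itga9 (chromosome 9, 118606690 to 118901003), which encodes the related chain α9, had 290 and 347 counts, at a log2 ratio of 0.01 (-0.22 to 0.24), so the 2 relatives behaved differently in these libraries.

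Of the ligands of α4, Vcam1 rose from 439 counts in the control to 7905 with TNF-α, at a log2 ratio of 3.91 (3.78 to 4.06), and was the highest of the 12 listed ligands. Madcam1, a ligand of the dimer of α4 and β7, had 2 and 16 counts, with an interval of the log2 ratio from 0.66 to 5.91. Icam1, the ligand of the leukocyte integrins with β2, rose from 5351 to 15121 counts, at a log2 ratio of 1.25 (1.20 to 1.29). These 3 were the ones past 2-fold higher among the 12 ligands, and 0 were past 2-fold lower, against 8.63% and 6.55% of all genes compared. The median of the list was 0.09, but -0.05 with at least 200 counts or 1 CPM and 0.31 once corrected for GC content and length, so its sign was not stable. The adhesion ligands Vcam1 and Icam1 were thus abundant with TNF-α, while transcripts of α4 and of the leukocyte integrin chains were rare in both libraries. Itgb1, which encodes the β1 partner of α4, was the most abundant integrin gene per length in both.

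The leukocyte integrin chains had few counts. Itgae had 52 counts in the control and 45 with TNF-α, Itgam 50 and 40, Itgad 2 and 0, and Itgax 2 and 7. Itgal, the α chain of the lymphocyte integrin that binds ICAM-1, had 11 and 0 counts, and the interval of its log2 ratio ended at -1.58, or at -0.13 with counts halved. Itgb2, the β partner of αD, αL, αM and αX, had 56 and 52 counts, and Itgb7, the partner of αE and α4, had 11 and 19. Except for Itgal, no member of this group that reached 10 counts was past 2-fold.

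The 19 leukocyte markers summed to 31.4 CPM in the control and 38.5 CPM with TNF-α, and 12 of them reached 10 counts. Of these 12, 1 was past 2-fold higher, Cd14 at 1.20 (276 and 756 counts), and 0 were lower, with Cd79a lowest at -0.59 (6 and 4 counts). In CPM, Cd14 went from 6.18 in the control to 14.2 with TNF-α. Of the 12, 6 had a log2 ratio above 0 and 6 below. The pan-leukocyte gene Ptprc had 26 and 38 counts, the macrophage gene Adgre1 0 and 2, and Cd3e, Cd3g and Nkg7 were at 0 in both libraries. Other macrophage genes of the list had more counts than Adgre1, Csf1r with 92 and 81, Cd68 with 83 and 75 and Mrc1 with 20 and 17. Itga4 had 26 and 180 counts in the same libraries, and the part of leukocytes in the Itga4 counts was not tested.

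**Figure D3:**
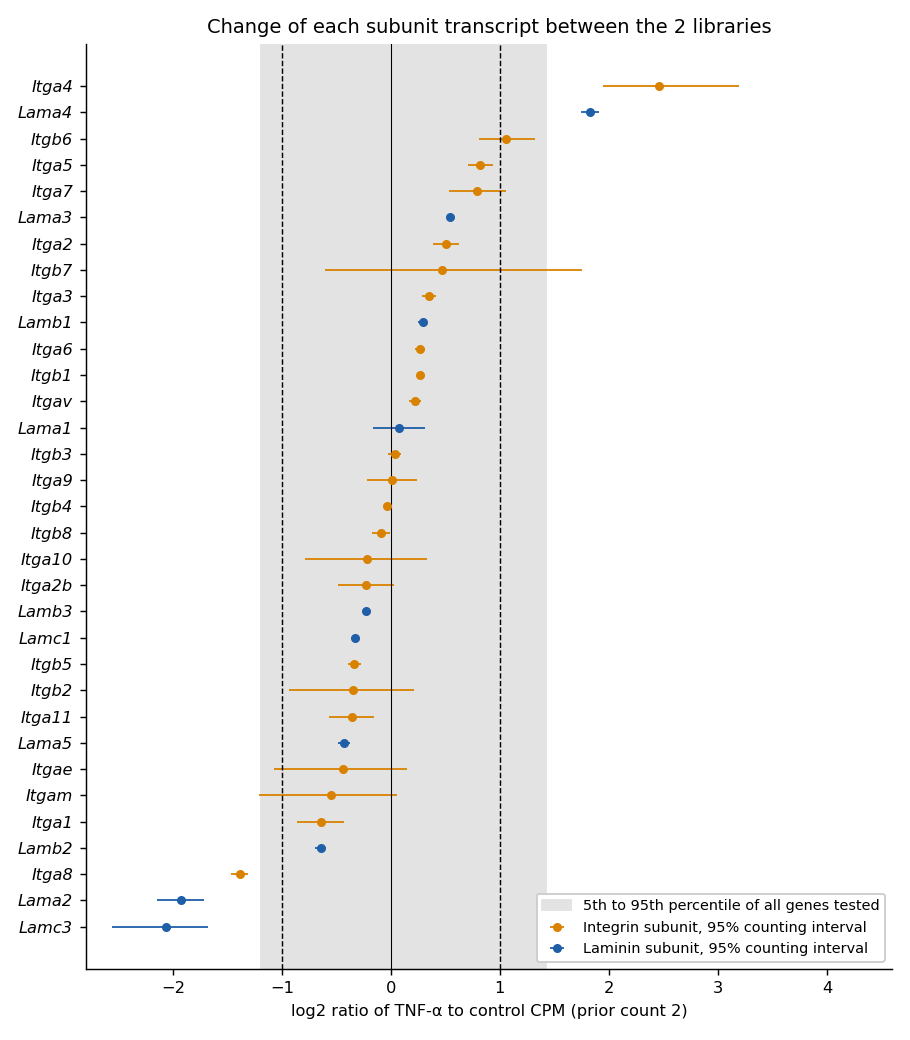
Log2 ratio of TNF-α to control CPM (prior count 2) of 33 members with 95% counting intervals, laminins in blue and integrins in orange, with dashed lines at 2-fold and a grey band from the 5th to the 95th percentile of the 20771 genes compared. Itga4 and Lama4 lie above the band, Itga8, Lama2 and Lamc3 lie below it, and Itgal (11 and 0 counts) is not drawn.

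Beside their ligands and receptors, other matrix genes of the basement membrane were mostly lower with TNF-α. Of 15 such genes, 11 had a log2 ratio below 0, and the median was -0.30, with all genes compared at a median of 0.01. Past 2-fold, 0 were higher and 2 lower, against 8.63% and 6.55% of all genes compared. The 2 were Col15a1, a collagen of the basement membrane zone, which fell from 4632 counts in the control to 1842 with TNF-α (-1.58, interval -1.66 to -1.50), and Col4a4, a minor collagen IV chain, which fell from 135 to 62 (-1.34, interval -1.83 to -0.93). The main collagen IV chains, named after their values were seen, were lower by less than 2-fold, with Col4a1 at -0.79 (42432 and 29246 counts) and Col4a2 at -0.81 (25551 and 17367 counts). The direction of Lama3 and Lama4 was therefore not that of the collagen IV genes, and Npnt was the highest of the list.

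Of the 24 genes of the adhesion machinery inside the cell that integrins connect to, 2 were past 2-fold higher and 2 lower. These counts are near the shares of 8.63% and 6.55% over all genes compared, and the median was 0.01. Tns3 and Tns1 encode tensins, which bind the tails of β subunits and link them to actin. Tns3 rose from 2995 counts in the control to 12390 with TNF-α, at a log2 ratio of 1.80 (1.74 to 1.85), and Tns1 fell from 2609 to 1518, at a log2 ratio of -1.03 (-1.13 to -0.94). The other called genes were rarely counted, Parvb with 22 and 62 counts (1.18) and Fermt3, the kindlin of blood cells, with 56 and 30 counts (-1.10, the lowest of the list).

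**Figure D4:**
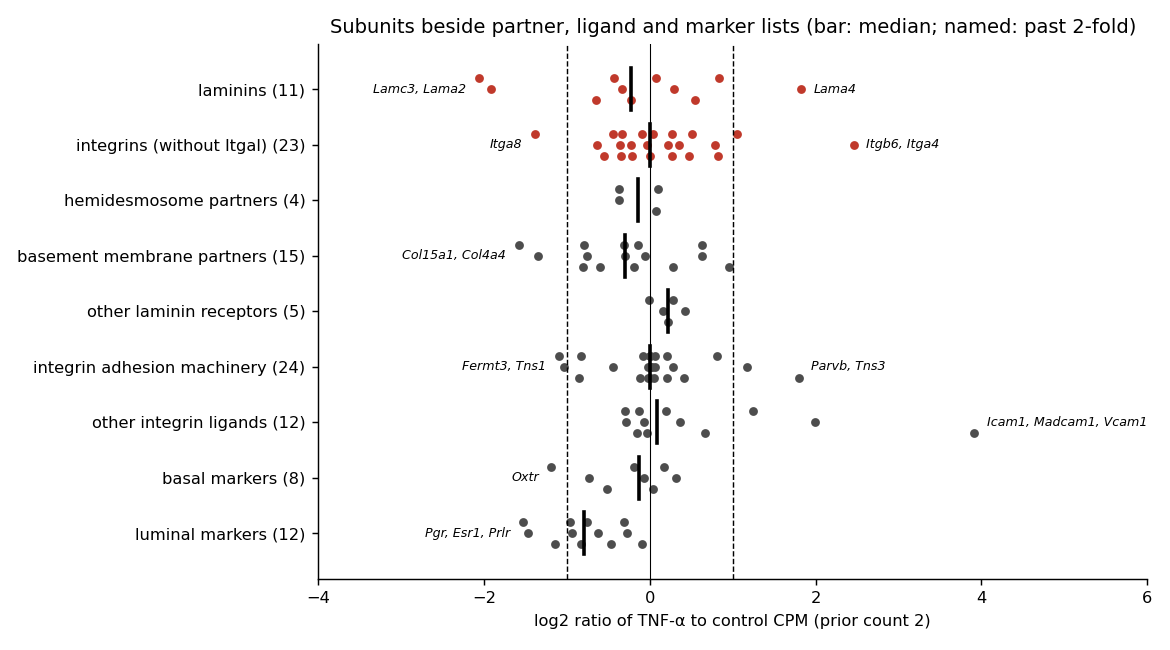
Log2 ratio of TNF-α to control CPM (prior count 2) of each gene compared, except Itgal, in the subunit families (red) and in the partner and ligand lists and the basal and luminal markers (grey), with a bar at each median, dashed lines at 2-fold, the number of genes in brackets and the genes past 2-fold named. The luminal markers lie below 0 without exception, and Vcam1 lies furthest to the right of the lists drawn, which leave out the leukocyte, endothelial, platelet and fibroblast markers.

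Markers of cell types moved between the libraries too. All 12 luminal markers had a log2 ratio below 0, with a median of -0.79 and 3 past 2-fold lower, Pgr at -1.53 (7228 and 2970 counts), Esr1 at -1.47 (2547 and 1094 counts) and Prlr at -1.14 (5767 and 3119 counts), while Krt8 was highest at -0.09 (54056 and 60420 counts). The 8 basal markers had a median of -0.13, from Oxtr, the oxytocin receptor gene of contractile basal cells, at -1.19 (10762 and 5630 counts), the only one past 2-fold, to Krt17 at 0.32 (16921 and 25108 counts). Whether the share of luminal-like cells had a part in the lower counts of Itga8, Lama2, Lamb2 or Lama5 was not tested.

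For Lama4, whose protein is known from vessels and mesenchymal cells, the markers of those cells are set beside it. The 9 endothelial markers summed to 9.51 CPM in the control and 8.66 CPM with TNF-α, 8 of them reached 10 counts, 0 were past 2-fold higher and 1 lower, Cldn5 with 16 and 2 counts (-2.35, interval -6.42 to -1.16), while Cdh5 was highest at 0.23 (112 and 157 counts). The 9 fibroblast markers summed to 544 CPM and 557 CPM, and 2 were past 2-fold higher, Dpt with 20 and 622 counts (4.59, interval 4.07 to 5.43) and Dcn with 184 and 582 counts (1.40, interval 1.17 to 1.66), while 0 were lower and Pdgfrb was lowest at -0.92 (789 and 494 counts). Col1a1, Col1a2 and Col3a1 gave most of the fibroblast sum (113, 206 and 126 CPM in the control). Of the 9 fibroblast markers, 6 had a log2 ratio above 0 and 3 below. Lama4 rose 3.54-fold, and the part of endothelial or fibroblast-like cells in that rise was not tested.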

How the data were processed

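RNA-seq libraries of sorted mouse mammary basal cells grown in 3D were compared, 1 control and 1 TNF-α library, mapped to their groups by the treatment label. Per the labels, total RNA was extracted with an RNeasy kit and libraries were made with a SMARTER mRNA-Seq kit. The paper's methods instead name RNAiso Plus for the RNA of sorted cells and cultured colonies. The authors deposited raw read counts for each gene without any normalization, next to its exon coordinates and summed exon length, and 0 columns of values stayed unmapped to a sample. The submitters' processing notes name GRCm38 and mm10. Of 47240 gene names shared with GENCODE M21 on GRCm38, 90.9% had the same chromosome, start and end, as had 30 of the 37 members. The aligner, the counting tool and the use of strand are not given in the sources used here. Library sizes were scaled over the whole table with edgeR 4.0.16 (TMM, R 4.3.3), with a TNF-α size of 1.19 times that of the control. Log2 ratios of CPM used a prior count of 2 and genes whose counts over both libraries came to at least 10. The quasi-likelihood test of edgeR needs replicates and could not be fitted with 1 library per group. Intervals (95%, Clopper-Pearson for shares of reads, normal approximation on the log scale for ratios of 2 genes within a library) cover counting error only. Levels of genes were compared per kilobase of the deposited exon length. Named genes are the members, except 1 that is not reported here, those with fewer than 200 counts by their counts, and of each list the genes past 2-fold, the highest and the lowest. The members, the lists and the pairs of genes set against each other were chosen with earlier results of these data known. Upstream sequences were read from RefSeq windows on GRCm38.p6. Alternatives were total counts, DESeq2 1.42.0 size factors, upper quartile scaling, prior counts of 0.5 and 5, a fold of 1.5, filters on low counts, halved counts, TPM for the levels, and lowess corrections (span 0.3) on length or on GC content and length. The calculation of the log2 ratios was tested on simulated counts with known folds. The remaining steps used pandas 2.3.3, scipy 1.17.1, numpy 2.4.6 and matplotlib 3.10.9 under Python 3.11.15.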

Additional observations from a re-analysis of the deposited data

How the results depend on the processing

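Of the members compared, 3 stayed past 2-fold higher and 3 to 4 past 2-fold lower under each alternative of scaling, prior count, stricter filter, halved counts or correction run here, while without a filter there were 4 higher and 5 lower (Itgax and Itgad in addition), and at a fold of 1.5 there were 6 higher and 6 lower. The filters of at least 1 CPM and of at least 200 counts leave out Itgal, whose fitted log2 ratio ran from -4.65 to -1.77 with the prior count. The median log2 ratio of the members, -0.04, was 0.0331 with at least 200 counts, 0.0114 when corrected for length and 0.0646 when corrected for GC content plus length. The cause of these shifts was not tested, except that the filter compares fewer genes. Of the 29 members with at least 200 counts, Itga9 and Itgb4 changed sign under an alternative other than TPM, and both lay within 0.2 of 0 throughout. Total counts, DESeq2 size factors and upper quartile scaling moved no member by more than 0.0148, while levels scaled as TPM shifted the log2 ratio of each member with at least 200 counts by -0.0538, which turned Itga9 and Itgb3 (0.03 to -0.02) below 0. No paired analysis was possible because each group had 1 library, so no replicate could be left out either. Depth limits the members with fewer than 200 counts most. Intervals for all genes were wider with halved counts.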

Other observations

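The pairs of subunits below were set against each other within each library, where library scaling cancels. Itgb6 stood at 0.0184 times Itgb5 per length in the control and 0.0485 times with TNF-α, a change of 2.64-fold (95% counting interval 2.21 to 3.15). Lama4 against Lama5 changed 4.76-fold (4.44 to 5.11), Lamb3 against Lamb1 0.696-fold (0.673 to 0.720) and Itga4 against Itga9 5.79-fold (3.73 to 8.98). The ratio of Itga6 to Itga3, the α chains of the main laminin receptors, changed 0.944-fold (0.893 to 0.998), the smallest change of the 15 pairs computed. That order holds without correction for GC content and length. Once corrected, the log2 ratios were 0.30 for Itga6 and 0.49 for Itga3, and 0.15 for Itgb4 and 0.25 for Itgb1, which lie closer together. These pairs were chosen with values known, and the spread of such ratios between cultures was not measured.

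Nidogen and perlecan bind laminins in the basement membrane, and agrin binds laminins through their coiled coil. Nid1, which encodes nidogen-1, had 1857 counts in the control and 3417 with TNF-α, a log2 ratio of 0.63 (0.55 to 0.71). The other nidogen gene, Nid2, went the other way at a low level, with 41 and 28 counts, a log2 ratio of -0.76 (-1.55 to -0.07). The perlecan gene Hspg2 had 5947 and 8567 counts, a log2 ratio of 0.27 (0.23 to 0.32). Agrn had 13273 and 14279 counts, a log2 ratio of -0.15 (-0.18 to -0.11). Col18a1, a collagen of the basement membrane, had 18476 and 34047 counts, a log2 ratio of 0.63 (0.60 to 0.66), opposite to Col15a1, its close relative. Col4a5 and Col4a6, which form an epithelial collagen IV, were at -0.19 (12522 and 13105 counts) and -0.31 (15840 and 15246 counts). None of these was past 2-fold, and all were named after their values were seen.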
